A study of Mus musculus with 25 samples.

Results

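Whole back skin of mice on postnatal day 23 was compared with whole back skin on postnatal day 1, using 3 arrays of each age out of 25 arrays in the series. The arrays were taken by their age labels, and every probe set other than the controls was used. The series followed skin through the hair growth cycle on short-oligonucleotide arrays, from newborn to 1 year. The labels number the mice within each age and call the material total RNA of back skin. The labels name no strain, genotype, sex, treatment or hour of sampling for either group. The median of hair shaft genes was far lower at both ages than on days 6, 14 and 17, which brings the other tissues of the skin forward. Some genes of the hair shaft and its sheath were already present on day 1, so follicle differences remain in the comparison.

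Newborn skin is still growing fast. Its follicles are growing downwards, its epidermis is thick, its fat is immature, and the sheet of striated muscle beneath it, the panniculus carnosus, is made of young fibres. By weaning age the first set of hairs is complete, follicles rest in telogen, the epidermis is thin, and immune cells have settled in the skin. These are textbook facts and not results of the arrays. Samples of whole skin hold all of these tissues together, so fewer cells of a type and less RNA per cell cannot be told apart.

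Of 12488 probe sets, 66 were controls and 8835 were bright enough on at least 3 arrays to be tested, and these stood for 6569 named genes. Values are intensities in arbitrary units as deposited by the authors, and intensities are not compared between probe sets. The array median was 249.95 to 252 units on day 1 and 220.35 to 221.05 on day 23. Pearson correlations of log2 values were 0.96 to 0.967 among day 1 arrays, 0.965 to 0.968 among day 23 arrays and 0.849 to 0.882 between ages. Xist, which is transcribed in females, read 509, 1096 and 559 units on the day 1 arrays of mice 1, 2 and 3, and Eif2s3y, a gene of the Y chromosome, read 255, 13.4 and 245. On the day 23 arrays Xist read 1347, 8.7 and 8.3 and Eif2s3y read 3.4, 312 and 443. The day 1 arrays of mice 1 and 3 therefore held both sex markers, and counts without them are given where they differ by over 1.5 times. Whether those arrays hold RNA of more than 1 mouse was not tested. The labels name separate mice, and the number of arrays limits the precision. P-values rest on the spread between arrays of an age, pooled over the 18 arrays of days 1 to 23 and 9 weeks. Markers of liver, brain and cartilage read at most 184 units on the 6 arrays. Age and hair phase differ together between the groups and cannot be told apart.

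Skin of the 2 ages differed widely. By limma with Benjamini-Hochberg adjustment, 1018 genes were higher on day 23 (15.5% of those tested) and 1228 were lower (18.7%), at an adjusted p under 0.05. At least 4-fold changes numbered 91 upwards and 74 downwards, and the median log2 difference of all genes was -0.09. Calls in either direction covered 34.2% of genes, and 33.5% of the 8835 probe sets. Higher genes made up 45.3% of the calls. Centring each array on its median raised that share to 59.1% and shifted the median over all probe sets from -0.12 to -0.01. The intensities of the 6 arrays separated without overlap for 22.3% of genes in the upward direction and 31.4% in the downward direction, 53.7% in all. Leaving out the day 1 arrays of mice 1 and 3, which leaves 1 array on day 1 that is assumed to vary like the other ages, gave 492 higher and 423 lower genes, of which 480 and 422 were also called with all arrays. Calls fell over the whole array in that setting, so a smaller list count without those arrays is not by itself particular to the list. In the values that follow, 3 intensities are those of mice 1, 2 and 3 in that order, a log2 difference is day 23 minus day 1 with its standard error (SE), and adjusted p is limma's. An array under the floor of 32.7 units enters the fit at the floor. Where some arrays of an age were there, the size of the difference depends on the floor.

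**Figure D1:**
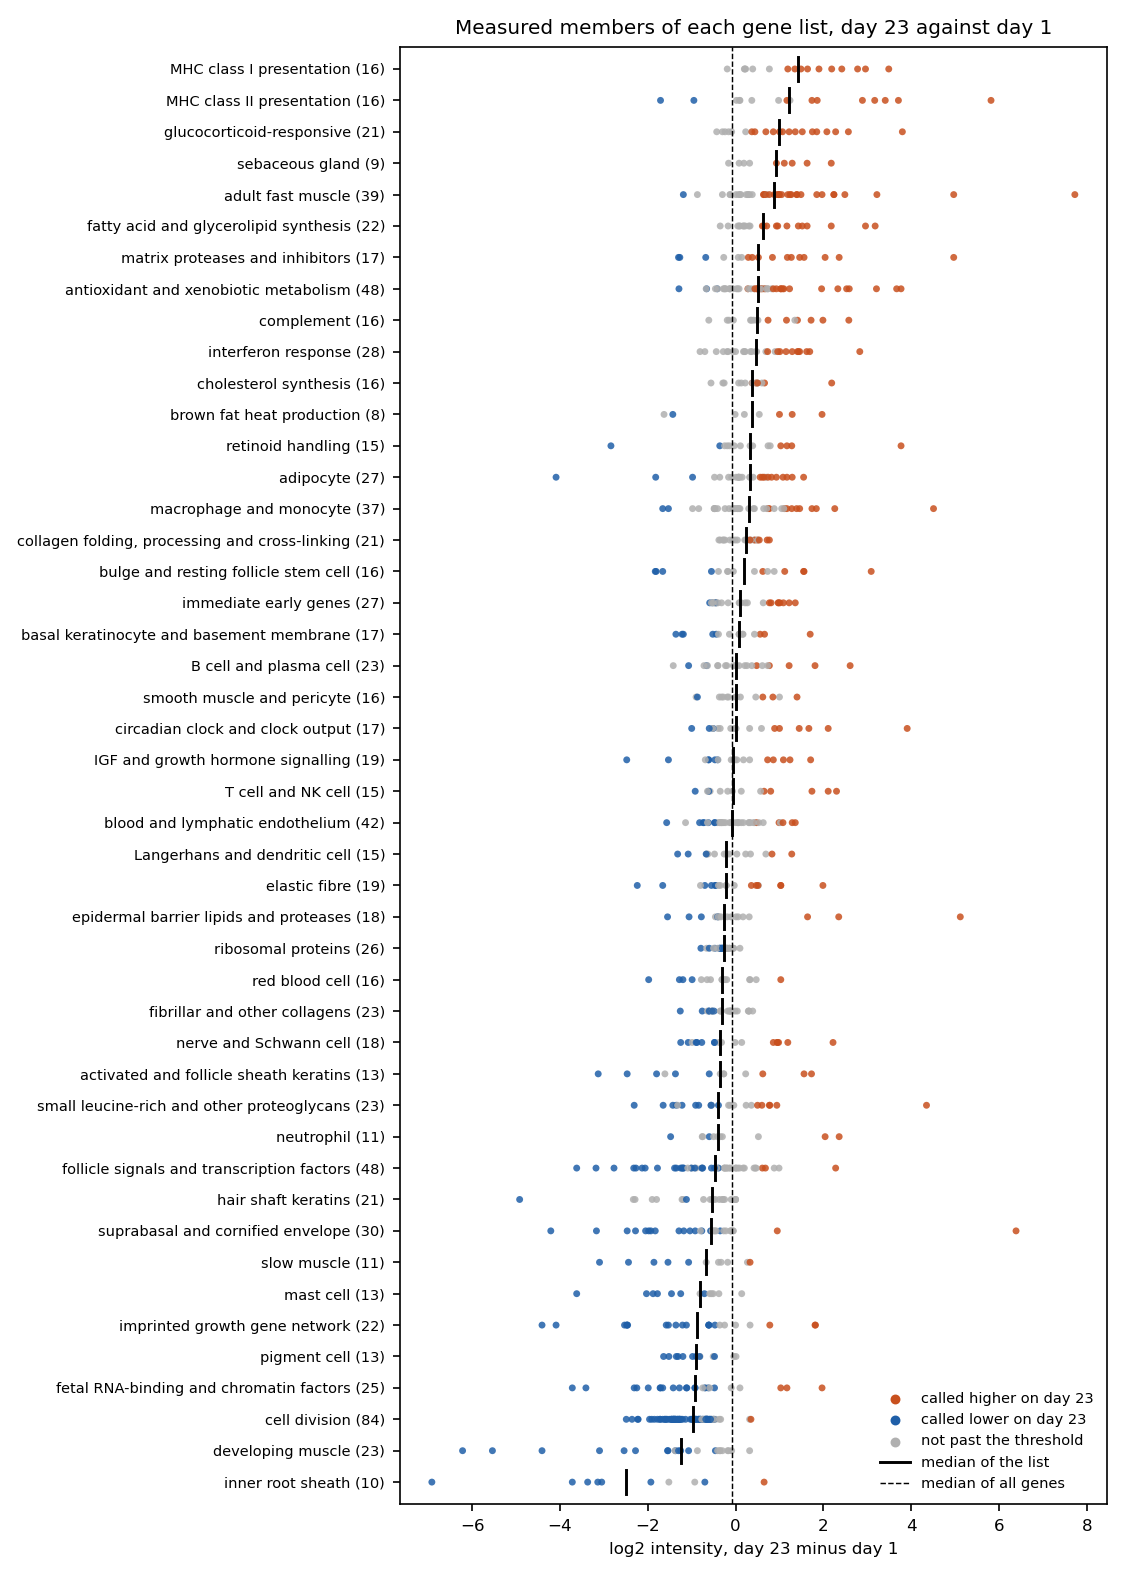
Log2 difference in intensity between day 23 and day 1 for each measured member of the gene lists. Each row is a list with its number of measured genes, each point is a gene (orange called higher, blue called lower, grey not called), black bars are list medians and the dashed line is the median of all genes (-0.09). Class I (1.42) and class II (1.21) presentation lie at the top and inner root sheath (-2.49), developing muscle (-1.25) and cell division (-0.98) at the bottom.

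The label of skin without hair shafts held for day 23 and in part for day 1. Over 21 keratins and keratin-associated proteins that build the hair shaft, the median intensity was 397 to 429 units on the day 1 arrays and 96.4 to 139 on the day 23 arrays, against 9310 to 11600 on day 6 and 22100 to 24500 on day 14. Keratin-associated protein Krtap6-2 read 152, 105 and 116 units on day 1 and 92.3, 134 and 50.9 on day 23, with overlapping arrays and a log2 difference of -0.51 ± 1.01 (adjusted p = 0.728). Krt35, a keratin of the lower hair shaft, was already present on day 1 at 1057, 1248 and 1176 units and read 47.9, 35.5 and 29.4 on day 23, with 1 array at the floor. It fell by 4.92 ± 1.03 on the log2 scale (adjusted p = 0.00153). No hair shaft gene was called higher and 2 of 21 were called lower, while 13 had lower groups that did not overlap. The SE of hair genes also carries the spread at 9 weeks, where 1 array of 3 was high: the list's median ran from 69.9 to 7090 units there.

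Of 10 measured genes of the inner root sheath, the sleeve that moulds the growing hair, 7 were lower and 1 was higher. Their median log2 difference of -2.49 was the lowest of the lists. Krt25, a keratin of that sheath, had 3668, 3923 and 4298 units on day 1 and 32.1, 11.4 and 31.2 on day 23, where all arrays were at the floor, so it was at least 121-fold lower (adjusted p = 0.000886). Tchh, trichohyalin, which hardens the sheath, had 398, 330.3 and 244 and then 41.1, 15.7 and 34.9 units, with 1 day 23 array at the floor, and fell by 3.14 ± 0.64 (adjusted p = 0.00129). For both genes every day 1 array lay above every day 23 array. Krt71 (-3.72 ± 1.14, adjusted p = 0.0188) and Krt27 (-3.37 ± 1.09, adjusted p = 0.0256) were also lower. Both lost the call without day 1 mouse 3, without day 23 mouse 2 and when all 25 arrays shared a fit. Krt27 also lost it without day 1 mouse 1, day 1 mouse 2 or day 23 mouse 3. Gata3, a transcription factor of the sheath and of other skin cells, was the higher gene (0.65 ± 0.11, adjusted p = 0.000262). Without the day 1 arrays of mice 1 and 3, or with all 25 arrays in a fit, 3 of the 10 were called lower.

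In the suprabasal epidermis and its cornified envelope, 15 of 30 measured genes were lower on day 23 and 2 were higher, and the median log2 difference was -0.56. Filaggrin (Flg), which bundles keratin in the granular layer, had 19595, 16260 and 20729.5 units on day 1 and 2056, 2256 and 1965 on day 23. It fell 8.98-fold, a log2 difference of -3.17 ± 0.20 (adjusted p = 6.19e-09). Keratin 1 (Krt1), the main type II keratin of these layers, had 24428, 18993 and 24072 and then 4312, 6104 and 6897 units and fell by 1.98 ± 0.19 (adjusted p = 7.63e-07). Neither gene had a day 23 array near the day 1 range. The keratin that pairs with Krt1, Krt10, overlapped between the ages, with 21574, 15590.4 and 18579 units on day 1 and 18006, 16999 and 15753 on day 23 (log2 difference -0.12 ± 0.13, adjusted p = 0.507). Loricrin (Lor), the bulk protein of the envelope, fell by 0.77 ± 0.10 (adjusted p = 2.85e-05), from 18825 ± 2281 to 10986 ± 127 units (SD, n = 3). Of 12 measured small proline-rich proteins, which are cross-linked into the envelope, 6 were lower and 6 did not pass. Sprr2h had 1082, 1099.5 and 1402 and then 23.3, 108 and 75.1 units, with 1 day 23 array at the floor (-4.21 ± 0.55, adjusted p = 1.91e-05). Sprr2d fell by 2.47 ± 0.31 (adjusted p = 1.16e-05). Members of this family are near-identical in sequence, so a probe set can read several of them.

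Keratin 77 (Krt77), another type II keratin of the epidermis, went the opposite way from Krt1. It read 156, 129.6 and 164 units on day 1 and 12516, 12807 and 12213 on day 23. The rise was 83.9-fold, a log2 difference of 6.39 ± 0.10 (adjusted p = 1.96e-17), and its arrays on either day lay close together. Mean intensity was 1092 units on day 6, 4942 on day 14 and 7173 on day 17, so each age exceeded the one before, and it was 18862 at 9 weeks. Flg and Krt1 kept a high mean on day 6 (13721 and 19755 units) and were low by day 14 (1465 and 947 units). Serpinb2, a protease inhibitor chosen here after its values were seen, was the other higher member, by 0.95 ± 0.13 (adjusted p = 2.8e-05).

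**Figure D2:**
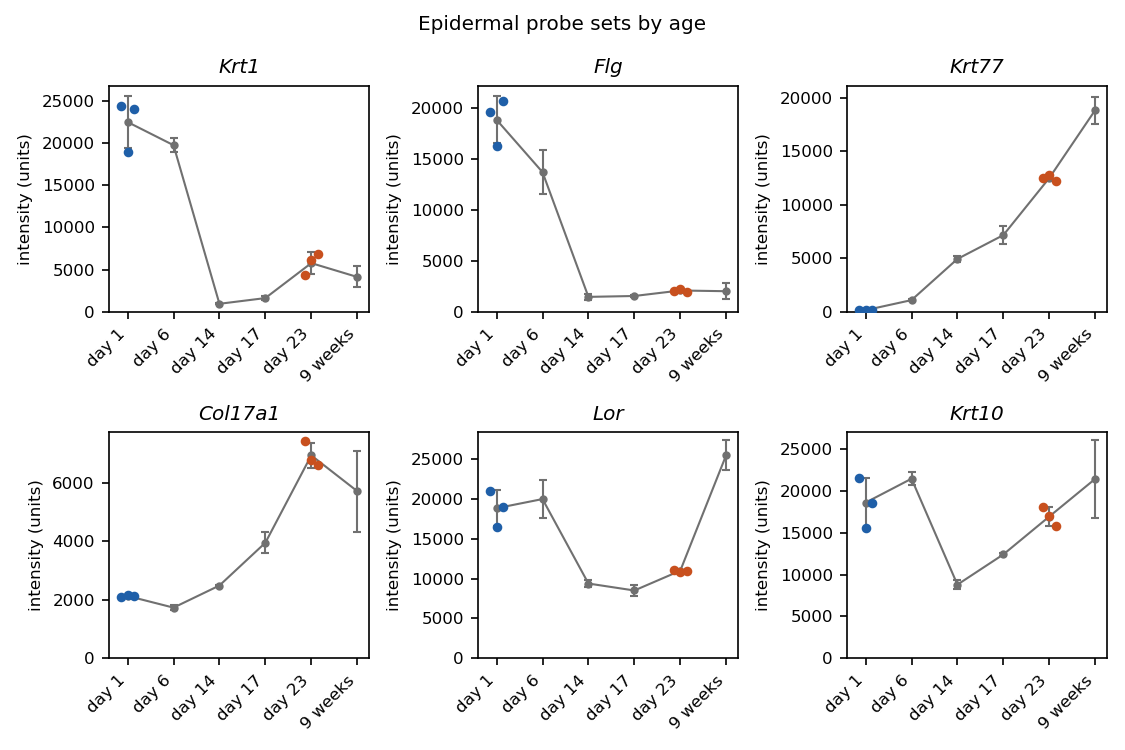
Intensity (linear axis, units) of 6 epidermal probe sets by age; grey points and bars are the mean and SD of 3 arrays, blue points the day 1 arrays and orange points the day 23 arrays. Krt1 and Flg drop between days 6 and 14, Krt77 climbs from day 1 to 9 weeks, and the day 1 and day 23 arrays of Krt10 overlap.

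Barrier enzymes were mixed, with 3 higher and 4 lower of 18, near the shares over all genes (15.5% higher and 18.7% lower). Ces1d, a carboxylesterase that hydrolyses lipid esters, was at the floor on day 1 (15, 15.5 and 16.7 units) and at 1390.2, 1049 and 1018 on day 23. It was thus at least 34.9-fold higher (adjusted p = 1.69e-09). Alox12e, an epidermal lipoxygenase, had 748, 653 and 664 and then 2179.5, 2406 and 1890.1 units and rose by 1.64 ± 0.12 (adjusted p = 2.67e-08). The opposite was found for Alox12b, a lipoxygenase required for the barrier, which fell by 0.78 ± 0.15 (adjusted p = 0.000602). Sult2b1, which makes cholesterol sulfate, fell by 1.55 ± 0.13 (adjusted p = 1.13e-07), from 950.3, 792 and 926 to 299, 306 and 304 units.

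Among 17 measured genes of basal keratinocytes and their basement membrane, 3 were higher and 5 lower, beside 15.5% and 18.7% over all genes. The list's median log2 difference was 0.08. The probe sets for the basal keratins Krt5 and Krt14 stayed at or under 57.7 units on all 6 arrays, below the filter of 127.8, and were not tested. Col17a1, the transmembrane collagen of hemidesmosomes, had 2091, 2155 and 2145 units on day 1 and 7428, 6766 and 6609.9 on day 23. It rose 3.25-fold (1.70 ± 0.13, adjusted p = 3.8e-08). Integrin beta 4 (Itgb4), its partner in that junction, rose by 0.56 ± 0.12 (adjusted p = 0.00209), a call lost without the day 1 arrays of mice 1 and 3. Laminin alpha 5 (Lama5), a basement membrane chain, had 1311, 1138 and 1370.3 and then 504, 427 and 563 units and fell by 1.36 ± 0.11 (adjusted p = 1.12e-07). P-cadherin (Cdh3), an adhesion protein of basal and follicle cells, fell by 1.19 ± 0.15 (adjusted p = 8.55e-06), and Cd44, the receptor for hyaluronan, by 1.22 ± 0.21 (adjusted p = 0.000304). In each of these genes the 3 arrays of an age lay clear of the other age. Without the day 1 arrays of mice 1 and 3 the list had 2 higher and 3 lower calls.

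Keratins of activated epidermis and follicle sheaths had 1 higher and 3 lower calls among 7 measured. Krt6a had 2002, 2206 and 2468 units on day 1 and 7151, 7495 and 7351 on day 23, a rise of 1.73 ± 0.09 (adjusted p = 3.73e-10). Its close relative Krt6b had 1505, 1761 and 2326 and then 556, 546 and 481 units, a fall of 1.80 ± 0.29 (adjusted p = 0.00014). Their partner Krt16 fell from 622, 687 and 1089 to 74.9, 113 and 82.8 units (-3.13 ± 0.35, adjusted p = 3.42e-06). Krt6a and Krt6b have similar sequences, and whether their probe sets read each other was not tested. The list also holds 6 S100 genes, calcium-binding proteins of which 2 were higher and 2 lower. In all, 3 of its 13 measured genes were higher and 5 lower, with 3 lower without day 1 mouse 1, day 1 mouse 2 or day 23 mouse 3, and 2 lower without the day 1 arrays of mice 1 and 3.

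Signals and transcription factors of follicle growth were lower as a group, with 21 of 48 lower, 3 higher and a median log2 difference of -0.47. Sonic hedgehog (Shh), the growth signal of the follicle epithelium, had 732, 627 and 615 units on day 1 and 32.4, 109.6 and 105 on day 23, a 9.07-fold fall with 1 day 23 array at the floor (adjusted p = 0.000191). Its receptor and target Ptch1 had 2346, 2629.6 and 1851 and then 400.2, 469.7 and 486 units and fell by 2.32 ± 0.15 (adjusted p = 5.8e-09). Both were lower on every day 23 array. Lef1, a transcription factor that carries the Wnt signal in the hair matrix, fell by 1.18 ± 0.12 (adjusted p = 1.35e-06), from 1677 ± 64.0 to 738 ± 51.4 units. Msx2, a homeobox factor of the matrix, went from 482, 393 and 342 units to the floor (13.1, 15.8 and 18.4), at least 12.3-fold lower (adjusted p = 0.000168). Tgfb1, which drives follicle regression among many other roles, fell by 2.77 ± 0.50 with 1 day 23 array at the floor (adjusted p = 0.000478). Foxn1, a differentiation factor of the hair matrix, read 84.4, 94.3 and 136 and 99.2, 22 and 68.3 units and overlapped (-0.76 ± 0.49, adjusted p = 0.251). Foxq1, Sfrp1 and Wnt10a, chosen after their values were seen, were the 3 higher members, with log2 differences of 2.28 ± 0.32, 0.68 ± 0.19 and 0.61 ± 0.12.

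Genes of the bulge and of resting follicle stem cells gave 5 higher and 4 lower calls among 16 measured, beside 15.5% and 18.7% over all genes. Cd34, a surface marker of bulge stem cells that vessels and dermal cells also carry, had 626, 644 and 631 units on day 1 and 1601, 1894 and 2102 on day 23, a 2.93-fold rise (adjusted p = 1.16e-05). Ccn2, a matrix-bound growth factor modulator, had 201, 212 and 210.5 and then 1799.9, 1798 and 1718 units and rose 8.52-fold (adjusted p = 8.38e-09). Tenascin C (Tnc), a matrix protein of growing tissue, fell by 1.66 ± 0.15 (adjusted p = 2.98e-07), and the transcription factor Runx1 by 1.83 ± 0.35 (adjusted p = 0.000665). The called members moved in both directions, and the list's median of 0.19 was -0.05 when probe sets had to be bright on 6 arrays.

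Pigment cell genes were lower. Of 13 measured, 9 were called lower and none higher, with a median of -0.90. Pmel, which forms the fibrils of the pigment granule, had 984, 1005 and 1048 units on day 1 and 423, 363 and 406 on day 23 and fell by 1.35 ± 0.20 (adjusted p = 7.52e-05). Dct, an enzyme of melanin synthesis, had 1713, 1986 and 1582 and then 938, 898 and 989 units and fell by 0.90 ± 0.18 (adjusted p = 0.000945). Oca2, a transporter of the pigment granule, fell by 1.64 ± 0.32 (adjusted p = 0.000945), a call lost with a floor at the 40th percentile. The arrays did not overlap for these genes, and the list had 5 lower calls without day 1 mouse 3 and 3 without both mice 1 and 3. The calls for Pmel and Dct were lost when all 25 arrays shared a fit.

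Sebaceous gland genes gave 5 higher and no lower calls among 9 measured, with a median of 0.93. Stearoyl-CoA desaturase 1 (Scd1), which makes monounsaturated fat in sebum and fat cells, had 8078, 5429 and 5085 units on day 1 and 18604, 20454 and 17313 on day 23. It rose 3.09-fold (adjusted p = 1.61e-05). Elovl5, a fatty acid elongase, had 1196, 1199 and 1090 and then 6926, 5019 and 4192 units and rose 4.53-fold (adjusted p = 9.11e-08). Plin2, a coat protein of lipid droplets, rose by 1.11 ± 0.14 (adjusted p = 1.31e-05). All of these are also made in other lipid-handling cells. Mc5r, the melanocortin receptor of the gland, did not pass, at 300.3, 295 and 324 and 257, 302 and 264 units (adjusted p = 0.595).

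In the dermis the main fibrillar collagens did not pass the test, while proteins around them did. Col1a1, the chief collagen of dermis, read 26472, 21216 and 26249 units on day 1 and 25989.6, 25335 and 22034 on day 23 (-0.01 ± 0.19, adjusted p = 0.98). Col3a1, its partner in young skin, read 17458, 13984 and 16124 and 16461, 16037 and 16319 units (0.04 ± 0.10, adjusted p = 0.76). Col1a2 read 18266, 15117 and 17464 and 21807, 21151 and 19566 units, higher on every day 23 array, and did not pass. It was called in 5 of 21 other settings, among them quantile normalization and centred arrays. Quantile normalization also gave a call for Col3a1. Col1a1 was the brightest probe set on each day 23 array, and compression at the top of the scale was not tested. Of 23 collagens, 6 were lower and none higher, with Col4a1, a basement membrane collagen, from 5763 ± 79.3 to 3785 ± 69.3 units (-0.61 ± 0.07, adjusted p = 1e-05). With arrays centred on their medians 3 collagens were higher and 5 lower, and without the day 1 arrays of mice 1 and 3 the list had 2 lower calls. Proteins that fold and cross-link collagen gave 6 higher and no lower calls among 21, with log2 differences of at most 0.77, with 3 calls without day 1 mouse 3 or day 23 mouse 2, 2 without day 23 mouse 3, and 0 without the day 1 arrays of mice 1 and 3. The largest was P4ha2, a prolyl hydroxylase, at 939, 1079 and 979.8 and then 1489, 1775 and 1868 units (0.77 ± 0.19, adjusted p = 0.00544).

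Proteoglycans changed in both directions, with 6 higher and 10 lower of 23. Fibromodulin (Fmod), a small leucine-rich proteoglycan that spaces collagen fibrils, had 30.6, 39.8 and 33.8 units on day 1 and 579.9, 816 and 792 on day 23. It rose 20.4-fold, a size that depends on the floor, with 1 day 1 array at it and the others near it (adjusted p = 7.11e-07). Decorin (Dcn), of the same family, had 8793, 8453 and 9287 and then 16630.2, 14117 and 15019 units and rose 1.72-fold (adjusted p = 9.72e-07). Versican (Vcan), a large proteoglycan of loose and growing matrix, went the other way, from 1892, 1904 and 1858 to 472, 695 and 657 units (-1.65 ± 0.23, adjusted p = 3.05e-05). Glypican 3 (Gpc3), a cell-surface proteoglycan of fetal tissue, fell 4.95-fold (adjusted p = 1.01e-08), from 3103, 3243 and 2872 to 577, 651 and 634 units. Each of the 4 had groups that did not overlap. Among 19 elastic fibre genes, 6 were higher and 6 lower. Fibrillin 2 (Fbn2), the fibrillin of early elastic fibres, fell 4.73-fold (adjusted p = 0.000352), from 479, 474 and 564 to 97, 113 and 111 units, while elastin (Eln) read 11930.1, 10291 and 11448 and 10019, 9827 and 9164 and did not pass (-0.21 ± 0.09, adjusted p = 0.0809). Without the day 1 arrays of mice 1 and 3, proteoglycans had 3 higher and 4 lower calls and elastic fibre genes 2 and 3. Elastic fibre genes also had 3 higher calls without either of those mice alone and 2 without day 23 mouse 1.

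Matrix proteases and their inhibitors were mostly higher, 11 of 17 against 3 lower, with a median of 0.52; another 9 on the array were below the filter. Stromelysin 1 (Mmp3), a protease of dermal cells, had 92.9, 24 and 9.8 units on day 1 and 1455, 1269 and 1669 on day 23, a 31.4-fold rise with 2 day 1 arrays at the floor (adjusted p = 6.3e-09). Cathepsin K (Ctsk), which digests collagen, had 814, 851 and 809 and then 2691, 2208 and 2434 units and rose 2.96-fold (adjusted p = 2.67e-07). Mmp12, the elastase of macrophages, rose 4.11-fold (adjusted p = 6.78e-05). Mmp9, a gelatinase, was at the floor on all day 1 arrays and at 214, 97.5 and 225 units on day 23, so at least 5.12-fold higher (adjusted p = 8.9e-05). The membrane protease Mmp14 read 3049, 3269 and 3245 and 3383, 3031 and 4232 units and did not pass (0.14 ± 0.11, adjusted p = 0.347). Plau, Mmp11 and Plat, named after their values were seen, were the lower members (-1.30 ± 0.26, -1.27 ± 0.34 and -0.68 ± 0.15), and the list had 1 lower call without the day 1 arrays of mice 1 and 3.

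Of 27 adipocyte genes, 10 were higher and 3 lower, or 5 and 2 without the day 1 arrays of mice 1 and 3. Adiponectin (Adipoq), a hormone of fat cells, read 6587, 6536 and 5856 units on day 1 and 7743, 5927 and 6323 on day 23, with overlapping arrays (0.07 ± 0.17, adjusted p = 0.791). Fabp4, a fatty acid carrier of fat cells, read 788, 778 and 702 and 578, 647 and 539 units, a little lower on every day 23 array, and did not pass (adjusted p = 0.208). Leptin (Lep) read 817, 1051 and 617 and 1418, 1702 and 946 units and did not pass either (adjusted p = 0.13). The higher members were Mgll, which splits monoglycerides (1.55 ± 0.14, lost when probe sets of a gene were averaged), the fatty acid carrier Cd36 (1.08 ± 0.24), Cidea, and 7 genes chosen after their values were seen. These were the phosphatase Lpin1 (1.17 ± 0.20), the fat cell hormone Retn (0.93 ± 0.25), the insulin-regulated glucose carrier Slc2a4 (0.82 ± 0.17), Apoc1 (0.74 ± 0.13), Car3 (0.65 ± 0.21), Gpam (0.61 ± 0.16) and Lipe (0.56 ± 0.18). The lower members were Mest, Agt and G0s2 (-0.98 ± 0.28), the last named after its values were seen and with overlapping arrays. Mest, an imprinted gene linked to fat expansion, had 1875, 1826 and 1775 units on day 1 and 130.2, 117 and 81.1 on day 23, a 17-fold fall (adjusted p = 1.69e-09). Agt, angiotensinogen, fell 3.54-fold (adjusted p = 0.00282). Cidea, a lipid droplet protein of brown fat and sebaceous cells, had 656, 587 and 449.8 and then 1254, 1559.5 and 1302 units and rose 2.45-fold (adjusted p = 0.000199).

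Enzymes of fatty acid and glycerolipid synthesis rose together, with 12 higher and none lower of 22 and a median of 0.63. Elovl6, which elongates saturated fatty acids, had 510.4, 569 and 528 units on day 1 and 4935, 4993 and 4610.1 on day 23. It rose 9.05-fold (3.18 ± 0.22, adjusted p = 1.69e-08). Thrsp, a nuclear protein of lipogenic tissue, had 365, 253 and 218 and then 1668, 3841 and 1479 units and rose 7.78-fold (adjusted p = 1.83e-06), with mouse 2 highest on day 23. Fatty acid synthase (Fasn) had 1538, 1648 and 1518 and then 3203, 5924 and 3997 units and rose 2.7-fold (adjusted p = 6.94e-06). Acly, which supplies its acetyl-CoA, rose 1.95-fold (adjusted p = 0.000164). All 12 called genes had groups that did not overlap. Of 16 cholesterol synthesis genes 5 were higher, and leaving out any of day 1 mice 1, 2 and 3 or day 23 mice 2 and 3 left 1 to 3. Msmo1, a sterol oxidase, rose most, from 368, 330.2 and 296 to 1192, 1612 and 1778 units (2.19 ± 0.24, adjusted p = 2.58e-06).

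Brown fat lies under the skin of the upper back, so its markers were read beside these genes. Ucp1, the heat-producing protein of brown fat, read 712, 1077 and 170.5 units on day 1 and 187, 437 and 54.2 on day 23, differed widely between mice of an age, and did not pass (-1.63 ± 0.73, adjusted p = 0.0964). Of the 8 brown fat genes measured, Cox7a1 (1.97 ± 0.34), Cidea (1.29 ± 0.21) and Cox8b (1.00 ± 0.15) were higher and Dio2 (-1.43 ± 0.32) lower. Cox7a1 and Cox8b are also subunits made in muscle. The calls for Cox7a1 and Dio2 were lost without the day 1 arrays of mice 1 and 3. The part of brown fat in these differences was not tested.

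Muscle showed an exchange of myosin heavy chains, the motor proteins that set the speed of a fibre. Embryonic myosin (Myh3) had 1478, 1448 and 1645 units on day 1 and was at the floor on day 23 (19.5, 1.9 and 2.9 units). It was at least 46.5-fold lower (adjusted p = 7.11e-11). Perinatal myosin (Myh8) had 5535, 4777 and 5164 units on day 1 and 38.2, 85 and 101 on day 23, 74.7-fold lower (adjusted p = 2.36e-10). In place of these, fast type IIb myosin (Myh4) went from 63.2, 77.5 and 103 units to 19822, 14762 and 16388. That was the largest rise of the 6569 genes tested, 212-fold or 7.73 ± 0.23 on the log2 scale (adjusted p = 4.46e-13). Fast type IIx myosin (Myh1) had 822, 898 and 785 and then 8217, 7132 and 8018 units and rose 9.33-fold (adjusted p = 2.98e-10). No array of an age came near the other age for these 4 genes. Skeletal actin (Acta1), a marker of striated muscle, read 26593, 18782 and 27335 and 24576, 21525 and 19715 units and overlapped (-0.13 ± 0.13, adjusted p = 0.457).

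The exchange was in progress at the ages between. Mean intensity of Myh3 was 78.7 units on day 6 and under the floor on day 14. Myh8 went through 1316, 307 and 117 units on days 6, 14 and 17, and Myh4 through 366, 4185 and 9846. Myh4 then read 33902 at 9 weeks, when Myh8 was at 104. The fall of Myh8 and the rise of Myh4 ran over the same days, and Myh3 was under the floor before Myh4 reached its day 23 level.

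**Figure D3:**
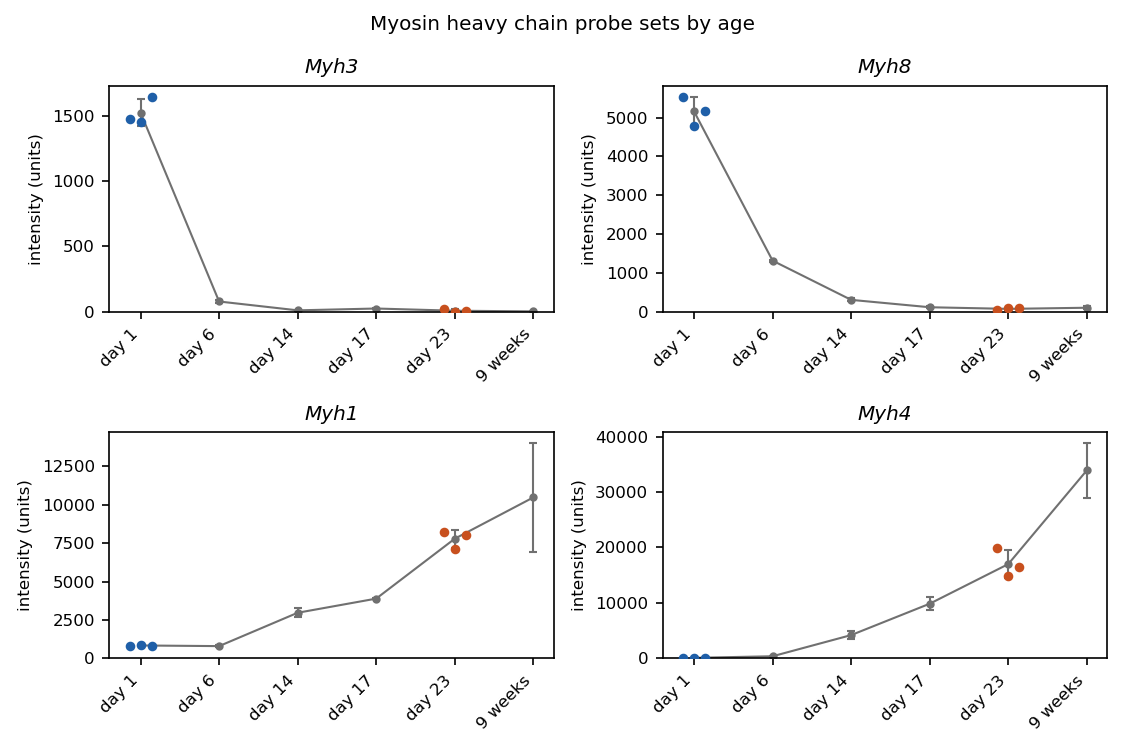
Intensity (linear axes, units, different for each gene) of 4 myosin heavy chain probe sets by age; grey points and bars are the mean and SD of 3 arrays, blue points the day 1 arrays and orange points the day 23 arrays. Myh3 and Myh8 drop from day 1 on while Myh1 and Myh4 climb after day 6.

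These 4 genes start in the order Myh3, Myh1, Myh4 and Myh8 along the plus strand of chromosome 11, so the rising genes lie between the falling ones. Their promoters are shown because the exchange ran between genes of a single cluster. Below are the 120 bases before each start, from RefSeq on build GRCm38.p6, with matches to TATAAA on either strand in capitals (read from the other strand as TTTATA).
Myh3, chr11:67078180-67078299, plus strand: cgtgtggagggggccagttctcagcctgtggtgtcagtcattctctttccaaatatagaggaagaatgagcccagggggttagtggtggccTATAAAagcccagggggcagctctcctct
Myh8, chr11:67277004-67277123, plus strand: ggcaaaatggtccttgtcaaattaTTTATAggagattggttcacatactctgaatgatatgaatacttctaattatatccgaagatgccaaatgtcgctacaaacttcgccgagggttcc
Myh1, chr11:67199982-67200101, plus strand: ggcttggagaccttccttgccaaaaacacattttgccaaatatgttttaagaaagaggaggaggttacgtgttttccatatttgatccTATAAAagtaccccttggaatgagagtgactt
Myh4, chr11:67237692-67237811, plus strand: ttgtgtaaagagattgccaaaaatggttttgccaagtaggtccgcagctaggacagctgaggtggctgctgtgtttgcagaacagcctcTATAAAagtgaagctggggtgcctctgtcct
The match begins 29 bases before the start in Myh3, 32 in Myh1 and 31 in Myh4, so it stood near the start of the falling Myh3 and of both rising genes, and in Myh8 it lies on the other strand at 96. Over the 250 bases before the start, 525 of 5251 tested genes with an entry and 14.3% of all genes hold this motif. A match is a description of the letters and not a shown binding site.

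Apart from these 4 myosins, 22 of 37 adult fast muscle genes were higher and 1 lower, and 11 of 21 developing muscle genes were lower and none higher. With them, of 39 adult fast muscle genes, 24 were higher and 1 lower, with a median of 0.88, and of 23 genes of developing muscle 13 were lower and none higher, with a median of -1.25. Parvalbumin (Pvalb), the calcium buffer of fast fibres, had 2785, 2396 and 2275 units on day 1 and 17307, 11958 and 12893 on day 23, a 5.6-fold rise (adjusted p = 2.18e-06). Myoglobin (Mb), which stores oxygen, had 18.7, 20.4 and 41.2 and then 1322, 1116 and 925 units and rose 31.4-fold with 2 day 1 arrays at the floor (adjusted p = 2.76e-09). Cacng1, a calcium channel subunit of muscle chosen after its values were seen, was the lower member (-1.19 ± 0.27). Dlk1, a membrane protein of precursor cells, had 15760.4, 14864 and 17413 and then 696, 915 and 670.4 units, 21.2-fold lower (adjusted p = 1.4e-10). Myogenin (Myog), a factor of muscle differentiation, read 654, 495 and 559 and 396, 281 and 267 units, lower on every day 23 array, and did not pass (adjusted p = 0.106). Without the day 1 arrays of mice 1 and 3 the developing muscle list had 8 lower calls and the fast muscle list 19 higher.

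Slow fibre genes were lower in 5 of 11 cases and higher in 1. Of the lower ones, Tnnc1, Actc1 and Casq2 were already counted as lower in the developing muscle list. Casq2 was named after its values were seen. Slow troponin I (Tnni1) had 1636, 1551 and 2092 units on day 1 and 611, 299.8 and 179.8 on day 23, 5.44-fold lower (adjusted p = 5.62e-05). Troponin C of slow and cardiac muscle (Tnnc1) had 517, 579 and 722 and then 281, 37.1 and 10.6 units with 1 day 23 array at the floor (-3.10 ± 0.56, adjusted p = 0.000421). Slow myosin Myh7 read 224, 156 and 459.5 and 569, 215 and 25.8 units, overlapped, and did not pass (adjusted p = 0.563). In all 3 genes mouse 1 was the highest and mouse 3 the lowest of the day 23 arrays. Cardiac actin (Actc1), which young skeletal muscle also makes, fell 2.91-fold (adjusted p = 2.06e-07), from 10462 ± 679 to 3601 ± 238 units. Smooth muscle and pericyte genes had 3 higher and 1 lower of 16, beside 15.5% and 18.7% over all genes. Among the higher was smooth muscle myosin (Myh11), from 306, 404 and 231 to 991, 706 and 751 units (2.64-fold, adjusted p = 0.00185). That call was lost with a covariate for arrays with both sex markers.

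Major histocompatibility complex (MHC) class II molecules show peptides to helper T cells and are made by dendritic cells, macrophages and B cells. Of 16 genes of the class II route measured, 8 were higher and 2 lower on day 23, with a median of 1.21. The alpha chain H2-Aa had 68.2, 64.5 and 53.3 units on day 1 and 3385, 3415 and 3682 on day 23, 56.6-fold higher (5.82 ± 0.20, adjusted p = 1.69e-12). Its partner H2-Ab1 had 198, 239.6 and 251 and then 2345, 1944 and 1890.4 units and rose 8.97-fold (adjusted p = 1.69e-09). The invariant chain Cd74, which escorts them, had 594, 657 and 704 and then 9418, 8277 and 7885 units and rose 13.1-fold (adjusted p = 1.73e-10). All 3 were separated on every array. H2-Ea, of the second class II pair, read 116, 118 and 119.7 on day 1 but 739, 1175 and 2288 on day 23, so mice of that age differed from each other (3.41 ± 0.85, adjusted p = 0.00544), and the call was lost without the day 1 arrays of mice 1 and 3. At the ages between, H2-Aa read 623, 1203 and 2025 units on days 6, 14 and 17, and 7003 at 9 weeks. The lower members, chosen after their values were seen, were the costimulator Cd86 (-1.71 ± 0.51, 1 day 23 array at the floor) and the protease Lgmn (-0.95 ± 0.20), and the list had 1 lower call without the day 1 arrays of mice 1 and 3.

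Promoters of class II genes share known elements, among them a reversed CCAAT box, and are shown for 3 genes that rose together. H2-Eb1 (2.89 ± 0.26) and H2-DMb1 (1.74 ± 0.36) were chosen after their values were seen and for having a promoter entry. The 120 bases before each start come from RefSeq on GRCm38.p6 and are written 5′ to 3′ on the strand of the gene, with CCAAT on either strand in capitals (ATTGG when read from the other strand).
H2-Aa, chr17:34287824-34287943, minus strand: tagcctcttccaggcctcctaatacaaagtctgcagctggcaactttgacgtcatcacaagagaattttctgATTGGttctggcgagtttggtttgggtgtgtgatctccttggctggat
H2-Eb1, chr17:34305747-34305866, plus strand: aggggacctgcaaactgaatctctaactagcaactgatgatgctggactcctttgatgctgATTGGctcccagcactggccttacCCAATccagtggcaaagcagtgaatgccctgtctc
H2-DMb1, chr17:34153071-34153190, plus strand: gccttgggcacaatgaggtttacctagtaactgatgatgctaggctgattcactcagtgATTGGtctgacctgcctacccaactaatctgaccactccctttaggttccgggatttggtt
All 3 hold the box on the reverse strand, beginning 48 to 61 bases before the start. They are a part of the 5 higher class II genes with an entry, and the others are not shown. In the 250 bases before the start, 4 of 5 higher class II genes with an entry held CCAAT, against 40.2% of tested genes and 37.5% of all genes.

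MHC class I molecules, made by nearly all nucleated cells, rose as well. Of 16 class I genes measured, 10 were higher and none lower, with a median of 1.42. H2-K1 had 1959, 2940 and 1810 units on day 1 and 11886, 12029.8 and 11101 on day 23, 5.34-fold higher (adjusted p = 1.03e-08). H2-D1 had 2284, 3123 and 1667 and then 10903, 9595 and 10809.6 units, 4.56-fold higher (adjusted p = 9.34e-08). Beta-2 microglobulin (B2m), their shared light chain, had 3008, 3312 and 3238 and then 8237, 9637 and 12392 units, 3.12-fold higher (adjusted p = 8.85e-07). No array of day 1 reached the day 23 range in any of the 3. Heavy chains of this family resemble each other and their probe sets may read several. Tap2, which pumps peptides to the chains, rose 6.88-fold with 2 day 1 arrays at the floor (80.3, 21.9 and 29.2 and then 265, 356 and 297 units, adjusted p = 4.3e-05). Psmb9, the peptide-cutting subunit of the immunoproteasome, rose 11.2-fold with 1 day 1 array at the floor (38, 42.5 and 31.1 and then 356, 586 and 355 units, adjusted p = 3.68e-05).

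Interferon-responsive genes were higher in 11 of 28 cases and lower in none, and 4 were called without the day 1 arrays of mice 1 and 3. Guanylate-binding protein Gbp2 had 118, 123 and 116 units on day 1 and 311, 382 and 298 on day 23 (1.46 ± 0.40, adjusted p = 0.0101). The GTPase Ifi47 was at the floor on day 1 and at 84.1, 115 and 104 units on day 23, at least 3.07-fold higher (adjusted p = 0.013). Iigp1, a GTPase of the same class, rose 7.11-fold with 1 day 1 array at the floor (adjusted p = 0.00941). These 3 calls were lost without the 2 day 1 arrays. Other members overlapped: Isg15, a ubiquitin-like protein of the antiviral response, read 236, 391 and 270.5 and 210.4, 292 and 285 units (adjusted p = 0.742) and Irf7, a transcription factor of that response, read 402, 241 and 244 and 306, 223 and 234 (adjusted p = 0.642). Complement genes gave 6 higher and no lower calls among 16, with Serping1, the C1 inhibitor, at 568, 791 and 786 and then 4749, 3761 and 4230.1 units, 5.98-fold higher (adjusted p = 2.23e-09).

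**Figure D4:**
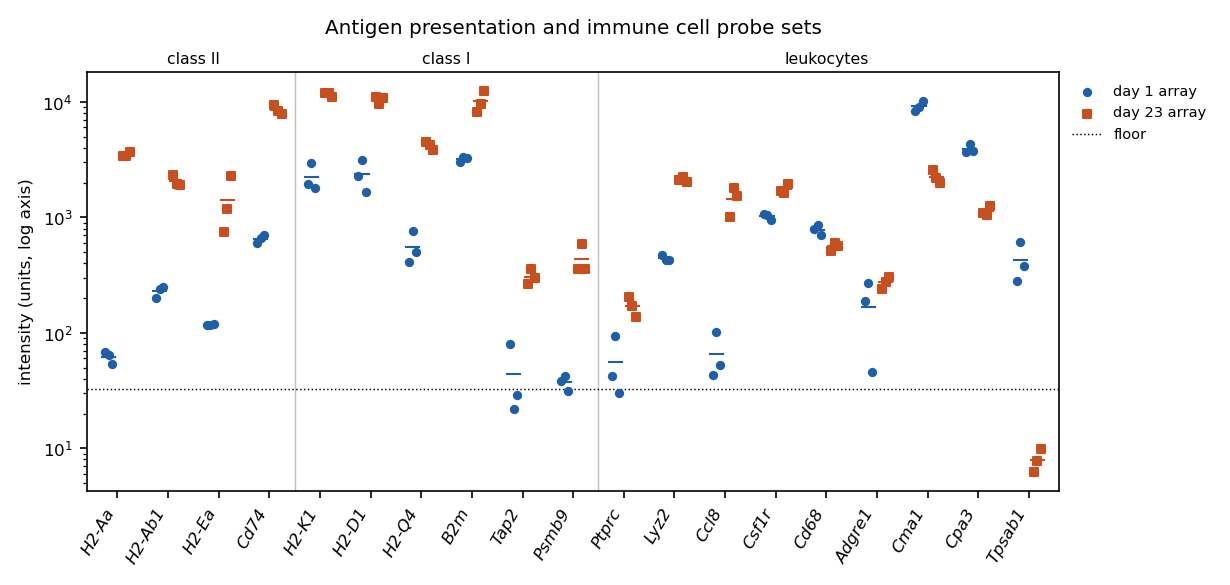
Intensity (log axis, units) of class II, class I and immune cell probe sets on each array; circles are the 3 day 1 arrays, squares the 3 day 23 arrays, short bars their means and the dotted line the floor of 32.7 units. Every antigen presentation gene shown is separated upwards and Cd68 and the mast cell genes Cma1, Cpa3 and Tpsab1 downwards; levels are not comparable between probe sets.

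Macrophage and monocyte genes gave 11 higher and 2 lower calls among 37. Ccl8, a chemokine of skin macrophages, had 43.3, 101 and 52.9 units on day 1 and 1009.9, 1785 and 1534 on day 23, 22.9-fold higher (adjusted p = 3.21e-08). Lysozyme (Lyz2) had 469, 424 and 428 and then 2096, 2243 and 2007 units, 4.8-fold higher (adjusted p = 7.79e-08). The receptor for colony-stimulating factor 1 (Csf1r), which all macrophages carry, had 1068, 1050.5 and 943 and then 1690.5, 1614 and 1938 units and rose 1.71-fold (adjusted p = 0.000391). These separated upwards, but other macrophage markers did not pass. Cd68 read 786, 856 and 707 and 514, 603 and 568 units (-0.48 ± 0.20, adjusted p = 0.0694), lower on every day 23 array, and Mrc1 read 690, 872 and 567 and 654, 541 and 832 (-0.07 ± 0.31, adjusted p = 0.879). Adgre1 read 187, 267 and 45.8 on day 1, with mouse 3 far below the others, and 239.9, 277 and 303 on day 23 (adjusted p = 0.172). Ptprc, carried by all leukocytes, rose from 42.6, 93.4 and 30.3 to 206, 172 and 138 units with 1 day 1 array at the floor (1.74 ± 0.41, adjusted p = 0.00396), a call lost without the day 1 arrays of mice 1 and 3. The lower members, seen before they were chosen, were Ccl2 (-1.66 ± 0.40) and Maf (-1.53 ± 0.35), and neither was called without those 2 arrays.

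Mast cells, the histamine-storing cells of skin, went the other way, with 7 of 13 measured genes lower, none higher and a median of -0.81. Mast cell protease Cma1 had 8399.7, 8948 and 10219.6 units on day 1 and 2551, 2200.1 and 1996 on day 23, 4.09-fold lower (adjusted p = 1.11e-05). Carboxypeptidase Cpa3 had 3698, 4293 and 3732 and then 1094, 1048 and 1265 units, 3.44-fold lower (adjusted p = 1.48e-05). Tryptase Tpsab1 had 282, 606 and 382 units on day 1 and was at the floor on day 23 (6.2, 7.8 and 9.8), at least 12.3-fold lower (adjusted p = 2.51e-07). Hdc, which makes histamine, fell 3.68-fold (adjusted p = 0.00168). The called genes had groups that did not overlap. Kit, the growth factor receptor of mast cells and pigment cells, read 498, 636 and 371 and 254, 254 and 337 units, lower on every day 23 array, and did not pass (adjusted p = 0.067). Mean Cma1 was lower still on days 14 and 17 (831 and 1068 units) than on day 23.

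Of 36 T cell and NK cell genes on the array, 21 were below the filter, and of the 15 measured 5 were higher and 2 lower, or 3 and 0 without the day 1 arrays of mice 1 and 3. Without day 1 mouse 3 alone there were 3 higher calls. Cd3e, a chain of the T cell receptor complex, had 52.1, 40.8 and 55.6 units on day 1 and 128, 155 and 220.3 on day 23 (1.74 ± 0.33, adjusted p = 0.000644). The call for Cd3e was lost with a floor at the 40th percentile. Trgv4, a variable segment of the gamma-delta receptor, had 95.5, 24 and 65.3 and then 275, 278 and 319 units and rose by 2.30 ± 0.33 with 1 day 1 array at the floor (adjusted p = 4.29e-05). Among 23 B cell and plasma cell genes 5 were higher and 2 lower, or 4 and 0 without those 2 arrays. Over all genes 15.5% were higher and 18.7% lower. The upward groups did not overlap for 5 of these 23 genes, near the 22.3% over all genes. Immunoglobulin mu (Ighm) had 159.5, 191 and 159.6 and then 1073, 1147 and 891 units, 6.09-fold higher (adjusted p = 2.06e-07). Cd79a, a chain of the B cell receptor, read 155, 247 and 242 and 269, 332 and 104 units, with overlapping arrays, and did not pass. Langerhans and dendritic cell genes had 2 higher and 3 lower of 15, or 1 and 2 without those 2 arrays. With all arrays both counts were near the shares over all genes (15.5% higher and 18.7% lower). The actin-bundling protein Fscn1 fell 2.12-fold (adjusted p = 1.86e-05) and the adhesion protein Epcam rose 2.44-fold (adjusted p = 1.38e-05), both of which keratinocytes or other cells also make. Itgax, the integrin of dendritic cells, read 258, 303 and 232 and 326, 343 and 332 units and did not pass (adjusted p = 0.265).

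Neutrophil genes had 2 higher and 2 lower of 11 measured, and 2 and 0 without the day 1 arrays of mice 1 and 3. With all arrays both counts were near the shares over all genes (15.5% higher and 18.7% lower). Il1r2, a decoy receptor for interleukin 1, had 267, 231 and 338 units on day 1 and 1053, 1063 and 1288 on day 23, 4.11-fold higher (adjusted p = 1.12e-07). Camp, an antimicrobial peptide, had 580.3, 615 and 685 and then 343, 267 and 124 units, 2.78-fold lower (adjusted p = 0.0161), but lost the call without day 1 mouse 3 or day 23 mouse 3. Elane, the elastase that defines the lineage, read 298, 278 and 336 and 269, 209 and 173 units, lower on every day 23 array, and did not pass (adjusted p = 0.167).

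Cell division genes were lower nearly throughout. Of 84 measured, 70 were called lower and 1 higher, 77 had lower groups that did not overlap, and the median was -0.98. Mki67, a marker of dividing cells, had 1212, 1104 and 824 units on day 1 and 192, 177 and 238 on day 23, 5.14-fold lower (adjusted p = 0.00014). Cdk1, the kinase that starts mitosis, had 979.5, 1113 and 845 and then 304, 307 and 276 units, 3.3-fold lower (adjusted p = 0.000268). Birc5, survivin, a part of the complex that guides chromosome separation, had 722, 622 and 684 and then 99, 121 and 145 units, 5.61-fold lower (adjusted p = 1.68e-05). In these genes the highest day 23 array was well under the lowest day 1 array. Top2a, which untangles DNA, fell 2.63-fold (adjusted p = 0.000561), and Mybl2, a factor that turns on these genes, 4.67-fold with 1 day 23 array at the floor (adjusted p = 6.79e-07), a call lost with a floor at the 40th percentile. Mean Cdk1 was 1238 units on day 6, 912 on day 14 and 464 on day 17. Cdkn2c, an inhibitor of the cycle seen before it was chosen, was the higher member (0.35 ± 0.13), and its arrays overlapped between ages. The list had 42 lower calls without the day 1 arrays of mice 1 and 3.

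Many cell cycle promoters hold CCAAT boxes and the CHR element, TTTGAA, and 4 are shown because their genes fell together. Cdc20 (-1.38 ± 0.16) and Ccnb2 (-1.61 ± 0.15) were chosen after their values were seen. The 120 bases before each start come from RefSeq on GRCm38.p6, on the strand of the gene, with CCAAT (or ATTGG) and TTTGAA (or TTCAAA) in capitals, and the matches shown do not overlap.
Cdk1, chr10:69352913-69353032, minus strand: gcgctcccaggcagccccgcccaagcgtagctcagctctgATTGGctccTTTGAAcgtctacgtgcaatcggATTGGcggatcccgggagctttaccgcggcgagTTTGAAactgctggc
Cdc20, chr4:118437344-118437463, minus strand: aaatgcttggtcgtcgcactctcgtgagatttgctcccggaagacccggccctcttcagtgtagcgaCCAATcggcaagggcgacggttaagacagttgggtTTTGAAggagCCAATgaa
Top2a, chr11:99024190-99024309, minus strand: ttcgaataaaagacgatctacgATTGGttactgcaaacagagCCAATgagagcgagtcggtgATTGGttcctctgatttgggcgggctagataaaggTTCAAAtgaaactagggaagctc
Ccnb2, chr9:70421555-70421674, minus strand: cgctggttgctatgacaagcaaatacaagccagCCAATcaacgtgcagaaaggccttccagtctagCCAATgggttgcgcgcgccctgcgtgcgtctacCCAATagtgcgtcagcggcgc
In the 250 bases before the start, 38 of 56 lower cell division genes with an entry held CCAAT (67.9%), against 40.2% of tested genes and 37.5% of all genes. TTTGAA was in 15 of 56 (26.8%), against 13.4% and 18.3%. Both motifs were in 14 of 56, against 5.16% and 6.45%. Ccnb2 held no TTTGAA in the bases shown. These shares describe the letters, and no test was made of them.

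Imprinted genes of the network that governs fetal growth fell together, 15 of 22 lower and 3 higher, with a median of -0.87. Insulin-like growth factor 2 (Igf2), the main growth factor of the fetus, had 18777, 14766 and 19995 units on day 1 and 3564, 3574 and 2502 on day 23, 5.58-fold lower (adjusted p = 9.42e-09). Its mean was 13131 on day 6, 3858 on day 14 and 1376 at 9 weeks. Plagl1, a transcription factor of the network, had 1564, 1951 and 1842 and then 306, 272 and 352 units, 5.76-fold lower (adjusted p = 1.45e-05). Dlk1 and Mest, described above, belong here too, and for all 4 genes the ages were far apart on every array. The higher members were Dcn, together with Ascl2 (1.82 ± 0.49) and Nnat (1.81 ± 0.37), which were picked after their values were seen. The list had 8 lower calls and 1 higher without the day 1 arrays of mice 1 and 3. In the wider IGF and growth hormone system 5 were higher and 6 lower of 19, or 4 and 3 without those 2 arrays. Igf1, the growth factor of later life, fell by 0.47 ± 0.15 (adjusted p = 0.0211), a call lost when arrays were centred on their medians and without day 1 mouse 1, day 1 mouse 3 or day 23 mouse 3. The growth hormone receptor (Ghr) had 478, 564 and 543 and then 882, 872 and 873 units and rose by 0.73 ± 0.15 (adjusted p = 0.00141), a call lost without the day 1 arrays of mice 1 and 3. The binding protein Igfbp6 rose 3.26-fold (adjusted p = 6.92e-05).

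Fetal RNA-binding and chromatin factors, with other genes of early tissue, were lower in 17 of 25 cases and higher in 3, with a median of -0.93. Igf2bp1, an RNA-binding protein of embryonic tissue that binds the Igf2 message, had 367, 454 and 466 units on day 1 and 17.7, 45.8 and 43.2 on day 23, 10.6-fold lower, a size that depends on the floor, with 1 day 23 array at it and the others near it (adjusted p = 6.27e-06). Nrk, a kinase of embryonic muscle and placenta, had 731, 628 and 702 and then 72.6, 41.9 and 46.6 units, 13.1-fold lower (adjusted p = 7.71e-07). Mycn, a growth-driving transcription factor, fell 4.76-fold with 1 day 23 array at the floor (adjusted p = 0.00013), from 284, 291 and 250 to 30.4, 67.7 and 86.2 units. For these genes no day 23 array came near a day 1 array.

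Of 21 measured genes that respond to glucocorticoid hormone, 15 were higher and none lower, with a median of 1.00. Zbtb16, a transcription factor strongly induced by the hormone, had 220.4, 261 and 198 units on day 1 and 4001, 1876 and 4132 on day 23, 14-fold higher (adjusted p = 2.16e-07). Fkbp5, a chaperone partner of the hormone's receptor, had 838, 857 and 919 and then 2757, 3054 and 3689 units, 3.61-fold higher (adjusted p = 4.61e-06). Cebpd, a transcription factor, had 429, 435 and 412 and then 2996, 2251 and 2379.6 units, 5.94-fold higher (adjusted p = 2.14e-08). Mouse 2 was the lowest of the day 23 arrays for Zbtb16, and still above all of day 1. Errfi1, a brake on growth factor receptors, rose 4.22-fold (adjusted p = 1.13e-07) and Ddit4, an inhibitor of mTOR signalling, 4.85-fold (adjusted p = 7.22e-05). Between these ages Fkbp5 read 491, 465 and 605 units on days 6, 14 and 17, so the mean of each was still under that of day 1, and it read 4571 at 9 weeks and 1376 at 5 months.

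**Figure D5:**
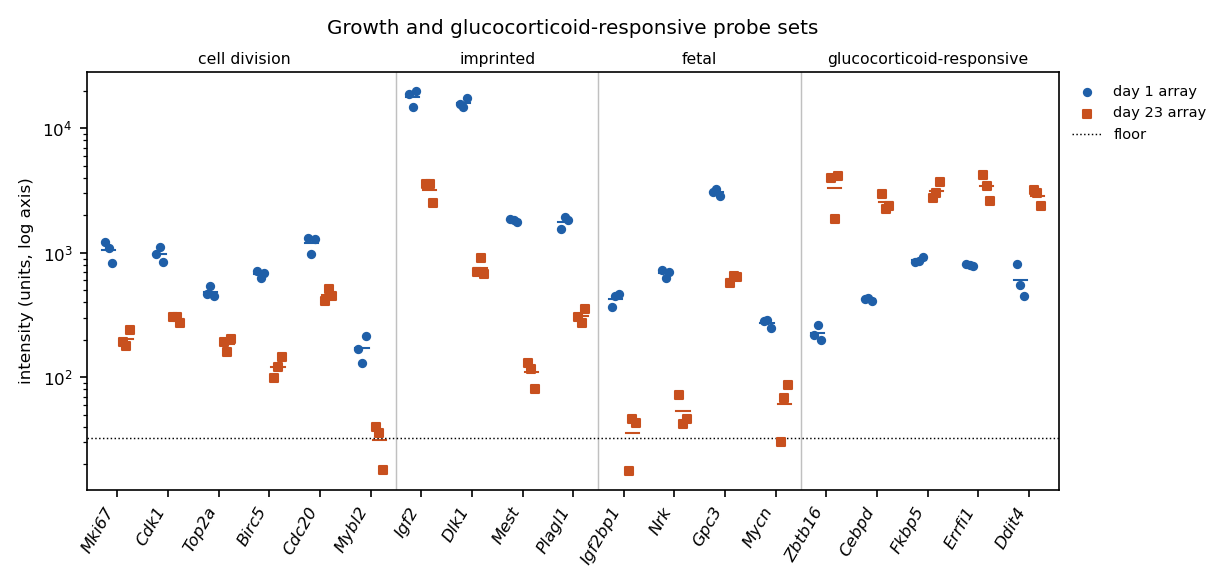
Intensity (log axis, units) of probe sets of cell division, imprinted, fetal and glucocorticoid-responsive genes on each array; circles are the 3 day 1 arrays, squares the 3 day 23 arrays, short bars their means and the dotted line the floor of 32.7 units. The first 3 groups are separated downwards and the last group upwards; levels are not comparable between probe sets.

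Of 17 measured genes of the circadian clock and its output 6 were higher, 3 lower and 8 not past the threshold. Dbp, a transcription factor driven directly by the clock, was at the floor on day 1 and at 469, 444 and 573 units on day 23, at least 15.1-fold higher (adjusted p = 8.76e-09). Its mean was under the floor on days 6, 14 and 17 too. Nr1d2, a clock repressor, had 306, 287 and 254 and then 1241, 1179.5 and 1239 units, 4.33-fold higher (adjusted p = 2.17e-09). Per1, which both the clock and glucocorticoids induce, rose 2-fold (adjusted p = 0.000318), and Tef, a relative of Dbp, 2.73-fold (adjusted p = 7.11e-07). The lower members, chosen after their values were seen, were the repressor Cry1 (-0.51 ± 0.12) and the kinases Csnk1d (-0.60 ± 0.14) and Csnk1e, which had 792, 784 and 1027 units on day 1 and 464, 371 and 467 on day 23. Without the day 1 arrays of mice 1 and 3 there were 6 higher calls and 1 lower. The labels do not name the hour at which skin was taken, so age and time of day cannot be told apart for these genes.

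Immediate early genes, which respond within minutes to handling and growth signals, had 8 higher and 3 lower of 27, or 7 and 1 without the day 1 arrays of mice 1 and 3. Fos read 512, 566 and 539.9 units on day 1 and 616, 540.4 and 583 on day 23 and overlapped (0.10 ± 0.21, adjusted p = 0.74). Dusp1, a phosphatase that glucocorticoids also induce, had 1137, 1258 and 1199 and then 2978, 3141 and 3099 units and rose 2.57-fold (adjusted p = 1.19e-05). Rhob, a small GTPase, rose 2.33-fold (adjusted p = 4.5e-06). The lower members were the transcription factor gene Egr1, with Jund and Ier2, which were named after their values were seen. The call for Egr1 was lost in 6 of 21 other settings, among them arrays centred on their medians.

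Genes for handling foreign compounds and oxidants had 22 higher and 3 lower calls among 48, with a median of 0.51. Gpx3, the secreted glutathione peroxidase, had 714, 775 and 798 units on day 1 and 8169, 6514 and 6544 on day 23, 9.24-fold higher (adjusted p = 5.8e-09). Ephx1, which opens reactive epoxides, had 60.1, 76.7 and 76.6 and then 889, 898 and 918 units, 12.8-fold higher (adjusted p = 1.05e-07). Aldh1a1, an aldehyde dehydrogenase that also makes retinoic acid, had 113, 122 and 114 and then 1691, 1252 and 1887 units, 13.6-fold higher (adjusted p = 6.99e-11). These genes separated fully by age. Cyp2e1, a cytochrome P450 that fat cells also make, had 688, 613 and 632 and then 3448, 2712 and 5464 units, 5.76-fold higher with mouse 3 highest on day 23 (adjusted p = 3.82e-07). Aldh3a1 rose 6-fold (adjusted p = 7.92e-09). The list had 13 higher calls without the day 1 arrays of mice 1 and 3. In the separate list of retinoid handling, which shares Aldh1a1, 4 of 15 were higher and 2 lower, or 3 and 1 without those 2 arrays. Over all genes 15.5% were higher and 18.7% lower. Rara, a receptor for retinoic acid, had 363, 349 and 348 and then 15.5, 47.8 and 76.6 units and fell 7.17-fold with 1 day 23 array at the floor (adjusted p = 7.28e-06). Its relative Rarg, the main receptor of epidermis, read 802, 664 and 562 and 689, 625 and 652 (adjusted p = 0.907).

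Several of the largest changes lay in genes outside the lists. Coch, cochlin, a secreted matrix protein, was at the floor on day 1 and at 629.9, 621 and 809 units on day 23, at least 20.8-fold higher (adjusted p = 3.35e-10). Fcgbp, a secreted mucin-like protein, had 158, 170.1 and 269 and then 2547, 2976 and 2983 units, 14.6-fold higher (adjusted p = 3.97e-09). Rnase2b, an RNase of the eosinophil family, had 72.3, 29.9 and 68.2 and then 1058, 762 and 887 units, 16.4-fold higher with 1 day 1 array at the floor (adjusted p = 8.54e-07). All 3 were higher on every day 23 array. In the downward direction, the angiotensin receptor Agtr2, abundant in fetal mesenchyme, had 1214, 1312 and 1316 units on day 1 and 46.8, 134 and 89.8 on day 23, 15.5-fold lower (adjusted p = 2.91e-08). The linker histone H1f10 had 1472, 1173 and 1367 and then 64, 97.8 and 122 units, 14.6-fold lower (adjusted p = 9.81e-06). Serpinb3a, a protease inhibitor of keratinocytes, fell 12-fold (adjusted p = 1.62e-07). Fbp1, an enzyme of glucose synthesis, went from 369, 450 and 410.4 units to the floor, at least 12.5-fold lower (adjusted p = 0.00182). It was at 3426, 4189 and 2755 units on days 6, 14 and 17, when the hair shaft genes were high.

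Older skin mostly stayed on the day 23 side of these differences. Of the 1018 higher genes, 565 (55.5%) had means at 9 weeks, 5 months and 1 year that all lay on the day 23 side of the midpoint between both ages, and of the 1228 lower genes 767 (62.5%) did. In contrast, 90 higher and 55 lower genes had none of the 3 means on that side. Adult arrays of an age differed in hair shaft genes. The median of that list ran from 69.9 to 7090 units at 9 weeks, 94.1 to 4140 at 5 months and 53.2 to 23100 at 1 year. The part of hair phase in the later means was not tested, and no share was computed for genes without a call. These later ages did not enter the fit, apart from 9 weeks, which lent its spread to it. All 25 arrays did set the floor, the filter and the probe set read for each gene, so the later ages are not fully independent of the calls. Between the compared ages, 90 of the higher genes (8.84%) rose at each of the 4 steps from day 1 to 6, 14, 17 and 23, among them Myh4, Krt77, H2-Aa, Cd74, Ccl8 and Fmod. A steady fall at each step was found in 65 of the lower genes (5.29%), among them Igf2, Myh8, Shh, Ptch1 and Top2a. All 3 later means lay on the day 23 side for 24 of 25 called genes of adult fast muscle, 10 of 10 of class I presentation, 59 of 71 of cell division and 16 of 18 of the imprinted network. Other lists had lower shares, with 4 of 15 called glucocorticoid-responsive genes, 2 of 9 of the circadian clock and 3 of 11 immediate early genes. The same held for 2 of 10 called ribosomal protein genes, 5 of 13 macrophage genes and 0 of 6 collagen folding genes. The lists named here are examples from both ends of the range.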

How the data were processed

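Total RNA from the back skin of mice was hybridised to short-oligonucleotide arrays. The deposited values are linear intensities. No label names the software or the scaling target of the authors. Intensities were raised to a floor at the 20th percentile (32.7 units), and probe sets above the 40th percentile (127.8 units) were kept if 3 or more arrays passed it. Log2 values of 18 arrays (days 1, 6, 14, 17 and 23, and 9 weeks) were fitted by group in R 4.3.3, using limma 3.58.1 with eBayes and a trend on intensity, and Benjamini-Hochberg adjustment ran over 8835 probe sets with a threshold of 0.05. A gene was read from its brightest probe set on average; 10833 probe sets carried 1 symbol, 396 several and 1193 none. Genes named were the cell type and sex markers, the first 3 members and up to 4 largest called changes of each list, and the 15 largest called changes in each direction; others are said to be chosen after their values were seen. The members and lists were chosen with earlier results of these data known. Mouse numbers did not pair the arrays: same-numbered deviations correlated at 0.04, -0.05 and -0.09. The script was tested on simulated data. Alternatives covered scaling, floor, filter, trend, weights, arrays fitted, sex markers and left-out arrays.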

Additional observations from a re-analysis of the deposited data

How the results depend on the processing

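Across 21 other settings, 140 of 204 called genes among the 251 chosen by the naming rule kept the call wherever they were tested. With all arrays 1018 genes were higher and 1228 lower. Leaving out 1 array in turn gave 810 to 898 higher and 902 to 1021 lower. A replicate block, for mouse numbers that do not pair the arrays, gave 1002 and 1208. A covariate for arrays with both sex markers gave 500 and 451, and leaving out both such day 1 arrays, chosen after the data were seen, gave 492 and 423. Other settings stayed within 1.5 times, and 50 named genes lost the call in each of the 2 sex-marker settings. Medians near 0 changed sign: Langerhans and dendritic cell genes went from -0.21 to 0.01 with quantile normalization and ran from -0.22 without day 1 mouse 2 to 0.02 without day 23 mouse 3, endothelium from -0.09 to 0.08 with quantile normalization and 0.02 with centred arrays, and bulge genes from 0.19 to -0.03 with a floor at the 40th percentile and -0.05 with a filter on 6 arrays. The cause was not tested.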

Other observations

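Nerve, vessel and blood genes were also measured and have not been described above. Of 18 nerve and Schwann cell genes, 6 were higher and 7 lower on day 23, with 4 lower without day 1 mouse 1 or day 23 mouse 3. Without the day 1 arrays of mice 1 and 3, which held both sex markers, the counts were 5 and 2. Myelin basic protein (Mbp), a building block of the myelin sheath, had 318, 317 and 208 units on day 1 and 1362, 1118 and 1399.6 on day 23, 4.67-fold higher (limma adjusted p = 4.53e-06). Pmp22, a protein of peripheral myelin, had 1924, 1767 and 1775 and then 4358, 4035 and 4042 units, 2.28-fold higher (adjusted p = 4.16e-06). The adhesion molecule Ncam1, carried by young nerve and muscle, had 1088, 1045 and 1006 and then 447, 446 and 430.5 units and fell 2.37-fold (adjusted p = 2.8e-05). Pou3f1, a factor of Schwann cells that have not yet made myelin, fell 2.11-fold (adjusted p = 0.00153), a call lost without the day 1 arrays of mice 1 and 3. Each of these genes had groups that did not overlap.

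Of 42 endothelial genes 5 were higher and 7 lower, or 2 and 2 without those arrays, 4 lower without day 23 mouse 3 and 4 lower when arrays were centred on their medians. With all arrays neither count exceeded the share over all genes (15.5% higher and 18.7% lower). Sox18, a transcription factor of growing vessels, had 2269.5, 2113 and 1958 units on day 1 and 694, 646 and 808 on day 23, 2.96-fold lower (adjusted p = 5.23e-08). Von Willebrand factor (Vwf), stored by mature endothelium, had 229, 199.7 and 212 and then 599, 434 and 542 units, 2.44-fold higher (adjusted p = 1.78e-05). The 2 general endothelial markers differed from each other. Pecam1 read 327, 349 and 474 and 529.5, 516 and 405 and overlapped (adjusted p = 0.408). Cdh5 had 810.3, 887.4 and 777 and then 595.1, 451.5 and 571.6 units and was called lower, a call lost without the day 1 arrays of mice 1 and 3. Red cell genes were lower in 4 of 16 cases and higher in 1, or 1 and 1 without the day 1 arrays of mice 1 and 3. Among them was alpha globin (Hba-a1), whose probe set may also read its near-identical neighbour, from 16263, 12004 and 15558 to 5393, 7226 and 5486 units (-1.28 ± 0.19, adjusted p = 6.79e-05). Embryonic beta globin (Hbb-y) had 207, 132 and 95 units on day 1, with 2 of 3 day 23 arrays at the floor (-1.98 ± 0.53, adjusted p = 0.00876), a call lost with a floor at the 40th percentile and without the day 1 arrays of mice 1 and 3. Of 26 ribosomal protein genes 10 were lower and none higher with a median of -0.27, with 4 lower when arrays were centred on their medians and 2 without the day 1 arrays of mice 1 and 3.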
